A study of Mus musculus with 27 samples.

Results

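Hemidesmosomes and the epithelial laminins were followed here through 9 genes: the integrin chains Itgb4, Itga6, Itga3 and Itgb6, the laminin chains Lama3, Lamb3 and Lama5, the cytolinker Plec and the tetraspanin Cd151. They were taken by symbol from the 24953 genes of a TPM table (levels adjusted for transcript length and library size), and all 9 were listed there. The table holds 3 RNA-seq libraries each of parental mK4 cells (control, labelled WT), Runx1KO cells and ZebDKO cells. mK4 is a mouse kidney metanephric mesenchyme line, grown in 10% serum until nearly confluent. Runx1KO cells lack the Runx1 exon with the start codon used in mK4, and ZebDKO cells lack the corresponding exons of Zeb1 and of Zeb2. All deletions were made with CRISPR-Cas9 and selected as clones. The sources used here do not say how many clones went into the libraries, and effects of clone and of genotype cannot be told apart.

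Hemidesmosomes fasten epithelial cells to the basement membrane. Their core is the integrin α6β4 pair, which binds laminin outside the cell and, through the long cytoplasmic tail of the β4 chain, plectin and the keratin filaments inside it. The preferred ligand is a laminin that holds the α3 and β3 chains, whereas laminins with the α5 chain are found in many mature epithelia, the kidney among them. Integrin α3β1 binds the same laminins without forming hemidesmosomes, Cd151 associates with α3 and α6 integrins in the membrane, and the β6 chain pairs with αv to bind fibronectin and latent TGF-beta. Zeb1 and Zeb2 are repressors of epithelial genes that bind E-box words such as CAGGTG, and Runx1 binds words such as TGTGGT.

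Sequence windows from the loci are shown first, because the open regions described further on carry these words. In the first 5 lines, which lie in chromatin listed as opening in Runx1KO cells, capitals mark CAGGTG or CAGGTA read on either strand. In the last line, which lies in a Runx1 ChIP-seq peak of control cells, capitals mark TGTGGT read on either strand. Each runs 5′ to 3′ on the strand of its gene and lies outside the exons of that gene.
Lamb3 upstream, mm9 chr1:195127851-195128150, plus strand: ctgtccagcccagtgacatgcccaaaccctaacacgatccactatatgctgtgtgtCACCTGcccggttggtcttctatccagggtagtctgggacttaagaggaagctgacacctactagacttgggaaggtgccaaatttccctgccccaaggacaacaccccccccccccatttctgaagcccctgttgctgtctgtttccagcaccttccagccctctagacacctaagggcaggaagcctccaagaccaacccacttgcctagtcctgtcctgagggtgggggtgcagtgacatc
Itgb4 intron, mm9 chr11:115836597-115836682, plus strand: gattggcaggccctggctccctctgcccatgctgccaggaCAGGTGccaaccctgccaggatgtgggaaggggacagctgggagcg
Itga3 intron, mm9 chr11:94936509-94936638, minus strand: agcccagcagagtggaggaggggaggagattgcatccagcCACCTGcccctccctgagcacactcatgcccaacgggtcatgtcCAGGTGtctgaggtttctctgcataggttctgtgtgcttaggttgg
Itgb6 intron, mm9 chr2:60534146-60534327, minus strand: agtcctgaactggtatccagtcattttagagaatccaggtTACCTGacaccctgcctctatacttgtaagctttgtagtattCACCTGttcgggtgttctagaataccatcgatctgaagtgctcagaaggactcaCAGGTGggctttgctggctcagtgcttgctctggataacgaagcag
Itga6 intron, mm9 chr2:71628489-71628574, plus strand: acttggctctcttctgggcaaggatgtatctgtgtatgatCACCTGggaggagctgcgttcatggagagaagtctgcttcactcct
Plec intron, Runx1 peak, mm9 chr15:76027046-76027218, minus strand: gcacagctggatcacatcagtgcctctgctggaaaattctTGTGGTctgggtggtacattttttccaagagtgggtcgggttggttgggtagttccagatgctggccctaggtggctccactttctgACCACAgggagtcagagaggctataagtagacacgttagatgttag

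The labels of the knockouts were looked at in the same table. A TPM per gene cannot show the loss of 1 exon. Runx1 was at 15.6 to 18.7 TPM in control, 28.5 to 30.3 in Runx1KO and 9.4 to 10.5 in ZebDKO libraries. Zeb1 was at 14.2 to 15.6 TPM in control, 0.1 to 0.2 in Runx1KO and 14.8 to 16.8 in ZebDKO libraries, and Zeb2 was at 4.9 to 5.5, 0.2 in each, and 1.6 to 1.8. Grhl2, an activator of epithelial genes, was at 0.1 in each control library, 4.9 to 5 in Runx1KO and 0.9 to 1.4 in ZebDKO libraries. Markers of simple epithelium (8 genes) summed to 2.7 to 4.9 TPM in control, 2660 to 2740 in Runx1KO and 1150 to 1210 in ZebDKO libraries. Krt8 alone gave 2302.3 to 2393.5 and 1026.5 to 1086.7 of the sums in the knockouts. Cdh1 was at most 0.6 TPM in any library, and Epcam was at 0 in every control and Runx1KO library. The 9 mesenchymal markers summed to 2970 to 3100, 2880 to 2940 and 2180 to 2220 TPM, most of it Vim. The 6 nephron progenitor markers summed to 380 to 385, 499 to 574 and 264 to 293 TPM, most of it Pax2, while Six2 was between 0 and 0.2 throughout. The 4 endothelial and 4 leukocyte markers each summed to at most 5.8 TPM, with Ptprc, the defining leukocyte gene, at 0 in every library. The part of these marker shifts in the results was not tested. In bulk libraries a larger share of cells with a transcript and more of it per cell cannot be told apart.

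Itgb4, the chain that defines the hemidesmosomal integrin, was close to the lowest value the table can show in control cells and abundant in both knockouts. Its level was 0.6, 0.5 and 0.5 TPM in the control libraries, 64.3, 60 and 61.3 in Runx1KO, and 32.4, 35 and 32.3 in ZebDKO. The 3 groups did not overlap. On log2(TPM + 1), the scale of every log2 difference given here, Itgb4 rose by 5.36 in Runx1KO (SE 0.0536, limma adjusted p = 2.71e-09) and by 4.48 in ZebDKO (SE 0.0633, adjusted p = 9.92e-09). The ratios of mean TPM were 116 and 62.3, and both rest on a control level of 0.533 ± 0.0577 TPM (SD, n = 3) in a table written to 1 decimal. In both comparisons Itgb4 passed the filter of 1 TPM in 3 libraries only through the knockout libraries, where it is high.

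Itga6, the partner of the β4 chain, separated the knockouts. It was at 17.9, 16.9 and 16 TPM in control, 55.6, 51.3 and 50.5 in Runx1KO, and 18.8, 19.6 and 17.7 in ZebDKO libraries. Every Runx1KO library lay above all others, whereas ZebDKO and control libraries overlapped. Itga6 rose by 1.58 in Runx1KO (SE 0.0553, adjusted p = 4.71e-07). In ZebDKO the difference was 0.14 (95% interval -0.00 to 0.28, adjusted p = 0.0677), and it was 0.33 with adjusted p = 0.00122 after median-ratio scaling. Over all alternatives its adjusted p ran from 0.00114 to 0.196. The direct comparison of Runx1KO with ZebDKO gave 1.44 (SE 0.0537, adjusted p = 4.65e-07). Itga6 transcript per Itgb4 transcript thus went from 31.9 ± 1.99 in control (SD, n = 3) to 0.848 ± 0.0214 in Runx1KO and 0.563 ± 0.0163 in ZebDKO, as ratios of TPM. In a second deposited table of control and Runx1KO libraries the ratio was 10.8 and 0.52. 

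Itga3, whose product pairs with β1 as a laminin receptor, was the most abundant of the 9 genes in both knockouts. It was at 84.8, 84.8 and 84.1 TPM in control, 272, 266.2 and 254.9 in Runx1KO, and 164.2, 161.3 and 162.6 in ZebDKO libraries. The groups did not overlap, with ZebDKO between the others. Itga3 rose by 1.63 in Runx1KO (SE 0.0301, adjusted p = 2.47e-08). In ZebDKO the difference was 0.94 (SE 0.0268, adjusted p = 1.41e-07), which missed the 2-fold limit used for calls, and it was 1.14 after median-ratio scaling. The direct difference was 0.70 (adjusted p = 9.11e-07). In this table Itga3 and Itga6 moved together in Runx1KO and apart in ZebDKO. Their ratio of TPM was 5 ± 0.26, 5.04 ± 0.149 and 8.72 ± 0.479 in control, Runx1KO and ZebDKO (SD, n = 3 each). In the second table this ratio was 7.41 in control (6.99 to 7.67) and 8.26 in Runx1KO (7.96 to 8.6), without overlap. Both its size and its lack of change in Runx1KO are thus particular to 1 table.

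Itgb6, the TGF-beta-activating β chain, had the opposite order of the knockouts. It was at 0.2, 0.1 and 0.1 TPM in control, 0.8, 0.7 and 1 in Runx1KO, and 3.6, 3.3 and 2.7 in ZebDKO libraries. The groups did not overlap, but all levels were low. It did not pass the filter of 1 TPM in 3 libraries for Runx1KO against control, and it passed in the other comparisons only through the ZebDKO libraries. Itgb6 rose by 1.89 in ZebDKO (SE 0.111, adjusted p = 4.04e-06) and was lower in Runx1KO than in ZebDKO by a log2 difference of -1.19 (SE 0.112, adjusted p = 4.07e-05).

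**Figure D1:**
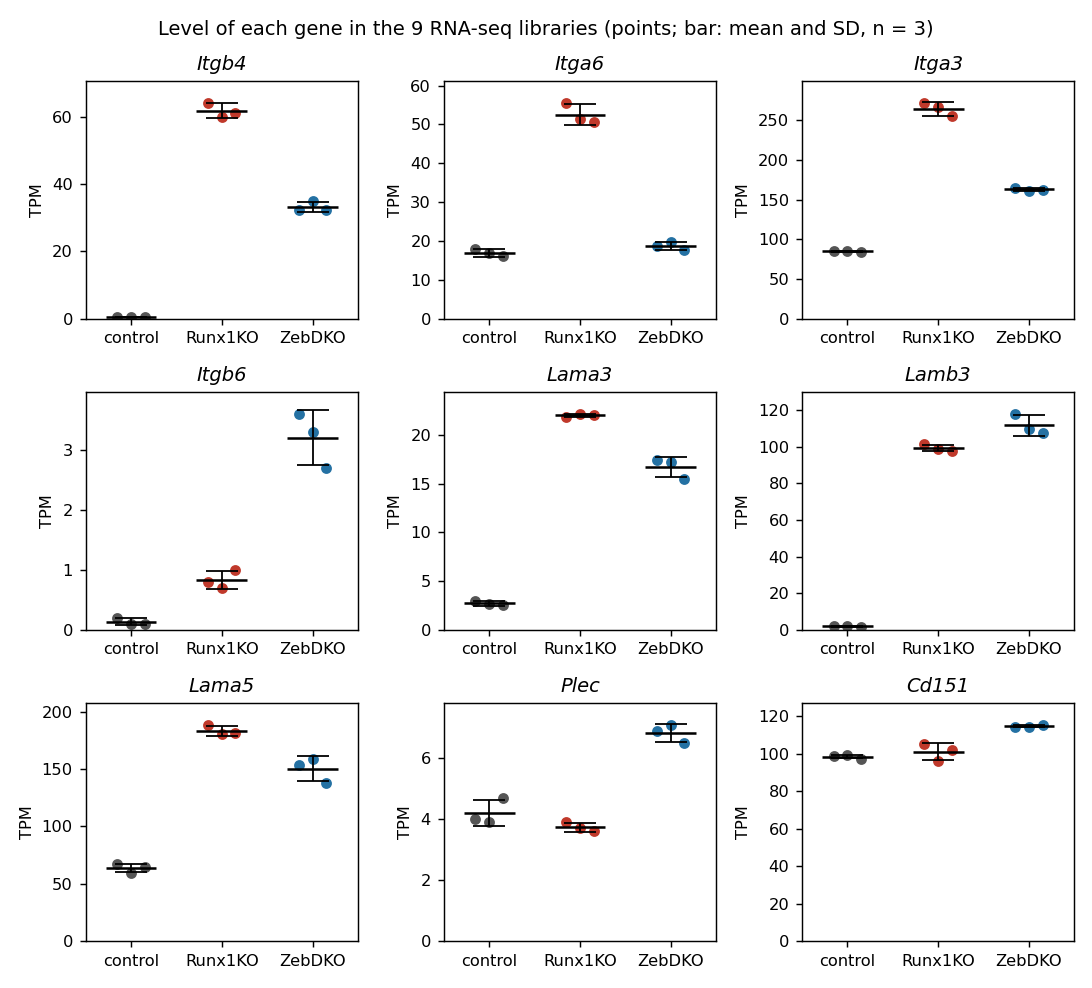
TPM (y axis, from 0) of each gene in control, Runx1KO and ZebDKO cells; points are libraries, and bars are the mean and SD of 3 libraries. Itgb4, Lama3 and Lamb3 are near the axis in control cells and high in both knockouts, Itga6 is high in Runx1KO cells, and Itgb6 and Plec are highest in ZebDKO cells.

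Among the laminins, Lamb3 had the largest shift. It encodes the β3 chain, found in only 1 kind of laminin. Lamb3 was at 1.9, 1.9 and 1.7 TPM in control, 101.4, 98.8 and 97.9 in Runx1KO, and 118.1, 109.6 and 107.4 in ZebDKO libraries. Lamb3 rose by 5.15 in Runx1KO (SE 0.0456, adjusted p = 2.06e-09) and by 5.31 in ZebDKO (SE 0.0562, adjusted p = 2.51e-09), as ratios of mean TPM 54.2 and 60.9. The knockouts lay close together, and the direct difference was -0.17 (95% interval -0.26 to -0.07, adjusted p = 0.00664), with each ZebDKO library above each Runx1KO library.

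Lama3 encodes the α3 chain. It was at 3, 2.7 and 2.5 TPM in control, 21.9, 22.2 and 22.1 in Runx1KO, and 17.4, 17.2 and 15.5 in ZebDKO libraries. The groups did not overlap. Lama3 rose by 2.63 in Runx1KO (SE 0.0611, adjusted p = 7e-08) and by 2.25 in ZebDKO (SE 0.0752, adjusted p = 2.91e-07), and the direct difference was 0.38 (adjusted p = 0.000284). The gene has a long and a short form that start far apart, and a TPM per gene does not separate them.

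Lama5, the α5 chain of kidney basement membranes, was already abundant in control cells. It was at 66.7, 59.5 and 64.5 TPM in control, 188.5, 180.9 and 181.1 in Runx1KO, and 153.7, 158.9 and 137.8 in ZebDKO libraries. Lama5 rose by 1.52 in Runx1KO (SE 0.0456, adjusted p = 2.29e-07) and by 1.23 in ZebDKO (SE 0.0643, adjusted p = 2.43e-06). The direct difference was 0.29 (adjusted p = 0.00157).

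A laminin needs 1 chain of each kind, so other chains were read beside these. The widely used chains were abundant in all libraries, with Lamb1 at 109.1 to 121.2 TPM and Lamc1 at 132.8 to 218.9, and neither was called. Lamc1 was lower in both knockouts without overlap, at 192.1 to 218.9 in control, 164 to 171.2 in Runx1KO and 132.8 to 151.9 in ZebDKO libraries. Its log2 differences from control were -0.28 and -0.51. Lamb3 made up 1.05% ± 0.0827 (SD, n = 3) of the TPM of the β chains Lamb1, Lamb2 and Lamb3 in control cells. That share was 35.6% ± 0.467 in Runx1KO and 35.5% ± 1.38 in ZebDKO cells. Lama3 went from 4.13% ± 0.342 of the sum of Lama3 and Lama5 to 10.7% ± 0.287 and 10% ± 0.217. In both shares every knockout library lay above every control library. The shares depend on the gene lengths behind TPM, which the sources do not give: in the second table the β3 share was 50.9% in Runx1KO and 1.82% in control cells, and the Lama3 share was 23% and 7.43%.

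**Figure D2:**
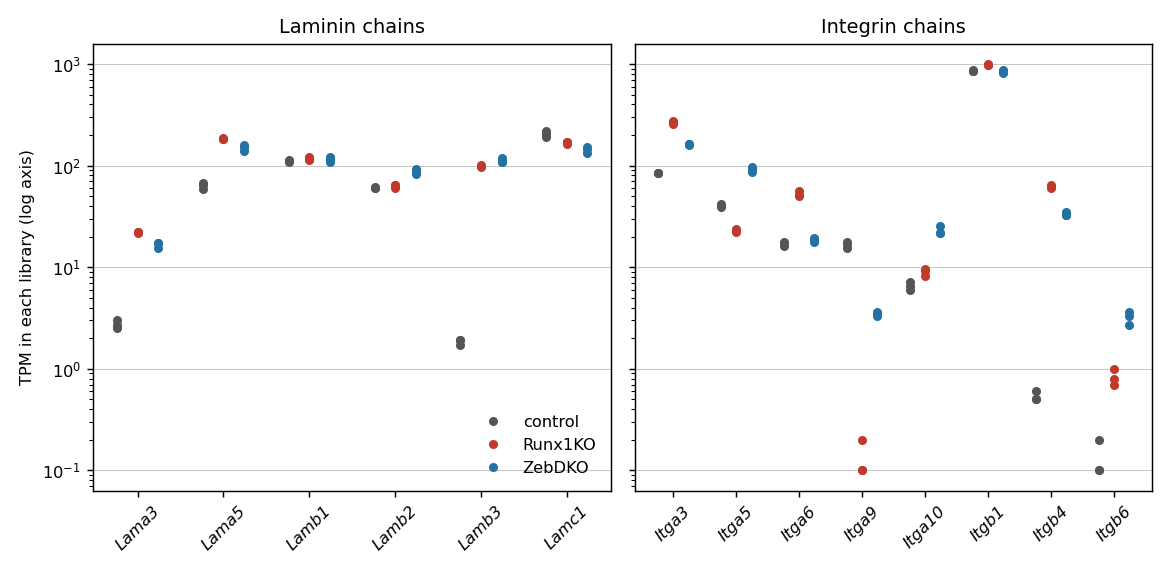
TPM on a log axis in each of 9 libraries for laminin chains (left) and integrin chains (right), colored by genotype. Lamb3 lies above Lamb2 in both knockouts, and Itgb4 passes Itga6 in both, while Itgb1 stays between 822.3 and 993.7 TPM.

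The genes whose products complete the junction at the membrane and inside the cell behaved differently. Plec, the plakin that ties the β4 tail to keratin, was at 4, 3.9 and 4.7 TPM in control, 3.9, 3.7 and 3.6 in Runx1KO, and 6.9, 7.1 and 6.5 in ZebDKO libraries. Runx1KO and control libraries overlapped, with a difference of -0.13 (95% interval -0.32 to 0.05, adjusted p = 0.169). In ZebDKO the difference was 0.59 (SE 0.0785, adjusted p = 0.000262), short of the 2-fold limit. Plec was lower in Runx1KO than in ZebDKO in every library, with a direct difference of -0.73 (adjusted p = 2.24e-05).

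Cd151 was at 98.8, 99.2 and 97.5 TPM in control, 105.2, 96.4 and 102.1 in Runx1KO, and 114.5, 114.4 and 115.5 in ZebDKO libraries. Runx1KO and control overlapped, with a difference of 0.04 (95% interval -0.05 to 0.13, adjusted p = 0.381). Each ZebDKO library lay above all others. Against control the difference was 0.22 (SE 0.0273, adjusted p = 0.000189), which is 1.17 as a ratio of mean TPM, and Runx1KO differed from ZebDKO by -0.18 (adjusted p = 0.00254).

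Counted together, 6 of the 8 genes tested rose in Runx1KO cells and none fell. Of all 13067 genes tested in that comparison, 7.91% rose and 5.1% fell, where a call needs a change of more than 2-fold and an adjusted p under 0.05. In ZebDKO cells 5 of 9 rose and none fell, against 7.5% higher and 7.28% lower among 12974 genes. Itgb4, Lama3, Lamb3 and Lama5 rose in both, Itga6 and Itga3 were called in Runx1KO only, and Itgb6 was called in ZebDKO and not tested in Runx1KO. Itgb4 in both and Itgb6 in ZebDKO entered these counts only through the knockout libraries. These comparisons share the control libraries. The direct comparison, which uses none of them, called Itga6 higher and Itgb6 lower in Runx1KO, against 9.2% and 6.59% of 13071 genes. All 9 genes had an adjusted p under 0.05 there, as did 80% of the genes tested, so that count by itself says little. The libraries of 6 of the 8 genes lay wholly above control in Runx1KO (31.7% of all genes tested) and those of 8 of 9 in ZebDKO (27.7%). In the direct comparison 5 lay wholly higher in Runx1KO (51%) and 4 wholly lower (30.7%), from which nothing is read at shares this high. The median log2 difference of the tested members was 1.6 in Runx1KO and 1.23 in ZebDKO, and over all tested genes it was -0.06 and -0.18. After median-ratio scaling the median of all genes was 0, which moved the higher share of all calls from 50.8% to 64.2% in ZebDKO and from 58.3% to 46.2% in the direct comparison. It left every member call listed above as it was and added Itga3 in ZebDKO.

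By level, Cd151, Itga3 and Lama5 led in control cells with means of 98.5, 84.6 and 63.6 TPM, followed by Itga6 at 16.9. Plec, Lama3, Lamb3, Itgb4 and Itgb6 were at 4.2 or less. Neighbours in that order did not overlap. In Runx1KO cells the order of mean TPM was Itga3 (264), Lama5 (184), Cd151 (101), Lamb3 (99.4), Itgb4 (61.9), Itga6 (52.5), Lama3 (22.1), Plec (3.73) and Itgb6 (0.833), and Cd151 and Lamb3 overlapped. In ZebDKO cells it was Itga3 (163), Lama5 (150), Cd151 (115), Lamb3 (112), Itgb4 (33.2), Itga6 (18.7), Lama3 (16.7), Plec (6.83) and Itgb6 (3.2), with Cd151 and Lamb3 again overlapping. The second table gave Plec 7.43 times and Lama5 0.534 times its control level here, so this order holds for 1 table only.

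The chromatin at the 9 genes was read from deposited peak lists in mm9. ATAC-seq peaks, which mark open chromatin, came in 3 classes from control and Runx1KO cells: opening (listed as more open in Runx1KO), closing (listed as less open) and stable. No ATAC-seq of ZebDKO cells was analysed here. The lists hold no value per replicate, so the counts are a description without a test. With a gene's body and 20 kb on either side taken as its locus, 8 of the 9 genes had an opening peak. The same held for 39.6% of 10627 tested genes with a position. These 9 genes are long, with a median of 49487 bp against 22173 bp, and a longer gene takes in more peaks. Within 5 kb of an annotated start, where length counts for less, 6 of 9 had an opening peak against 11.2%. Any start of a coding transcript counts here, so a gene with more starts takes in more sequence. Itga6 is among the 6 only through an internal start. Closing peaks lay at 4 of 9 loci against 28.7%, and at none within 5 kb of a start.

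Opening peaks covered an annotated start of 3 genes, Itgb4, Lama3 and Lamb3, each at no more than 3 TPM in every control library. Itgb6, lower still in control, had no opening peak over a start. The Itgb4 gene (ENSMUSG00000020758.9, chr11:115836023-115869726, plus strand) had a peak of 1280 bp over its 5′ end that ran into the first intron and held 4 Zeb words. The printed Itgb4 window is the part of that intron from 574 to 659 bases after the gene start. Lamb3 (ENSMUSG00000026639.11, chr1:195128151-195170072, plus strand) had a peak of 1239 bp across its start with 5 Zeb words, and the printed window is the last 300 bases before the gene start. Lama3 (ENSMUSG00000024421.9, chr18:12492533-12741522, plus strand) had 4 opening peaks. One covered the start of the long form, and another, with its middle 170196 bases into the gene, covered the start of a shorter coding transcript. Both Lamb3 and Lama3 lost peaks as well, with 2 closing peaks in introns of Lamb3 and 1 in an intron of Lama3.

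In the other genes the opening peaks lay away from the start. Itga3 (ENSMUSG00000001507.9, chr11:94905788-94938115, minus strand) had 6, the nearest at 1369 bases into the gene, where the printed window lies, while a stable peak lay 505 bases in. Lama5 (ENSMUSG00000015647.8, chr2:179911078-179960564, minus strand) had 5, from 7334 bases before to 7054 bases after its start, and likewise a stable peak 359 bases in. Itgb6 (ENSMUSG00000026971.9, chr2:60436349-60560700, minus strand) had 5, all in introns, of which 3 lay between 26547 and 30159 bases into the gene. The first of these 3 held 4 Zeb words, and 3 of them fall in the printed window. Itgb6, at 0.7 to 1 TPM in Runx1KO libraries, thus had as many opening peaks as Lama5 at 180.9 to 188.5. The Itgb6 gene is longer, however, at 124352 bp against 49487 bp for Lama5, and its peaks lie farther from its start. Itga6 (ENSMUSG00000027111.8, chr2:71583673-71696473, plus strand) had 1 short opening peak of 242 bp in an intron, 3321 bases after the start of an internal coding transcript. That internal start was covered by a stable peak of 1709 bp with 5 Zeb words. The stable peak overlapped a Runx2 peak of control and of Runx1KO cells.

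Cd151 and Plec, tested and not called in Runx1KO cells, had few opening peaks, but so did Itga6, which was called there. Cd151 (ENSMUSG00000025510.6, chr7:148653261-148657378, plus strand) had 1, 10352 bases upstream, inside Pnpla2 and nearest to the start of that gene. Plec (ENSMUSG00000022565.8, chr15:76001404-76063004, minus strand) had none and 16 stable peaks. Plec has 15 annotated starts of coding transcripts in that span.

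**Figure D3:**
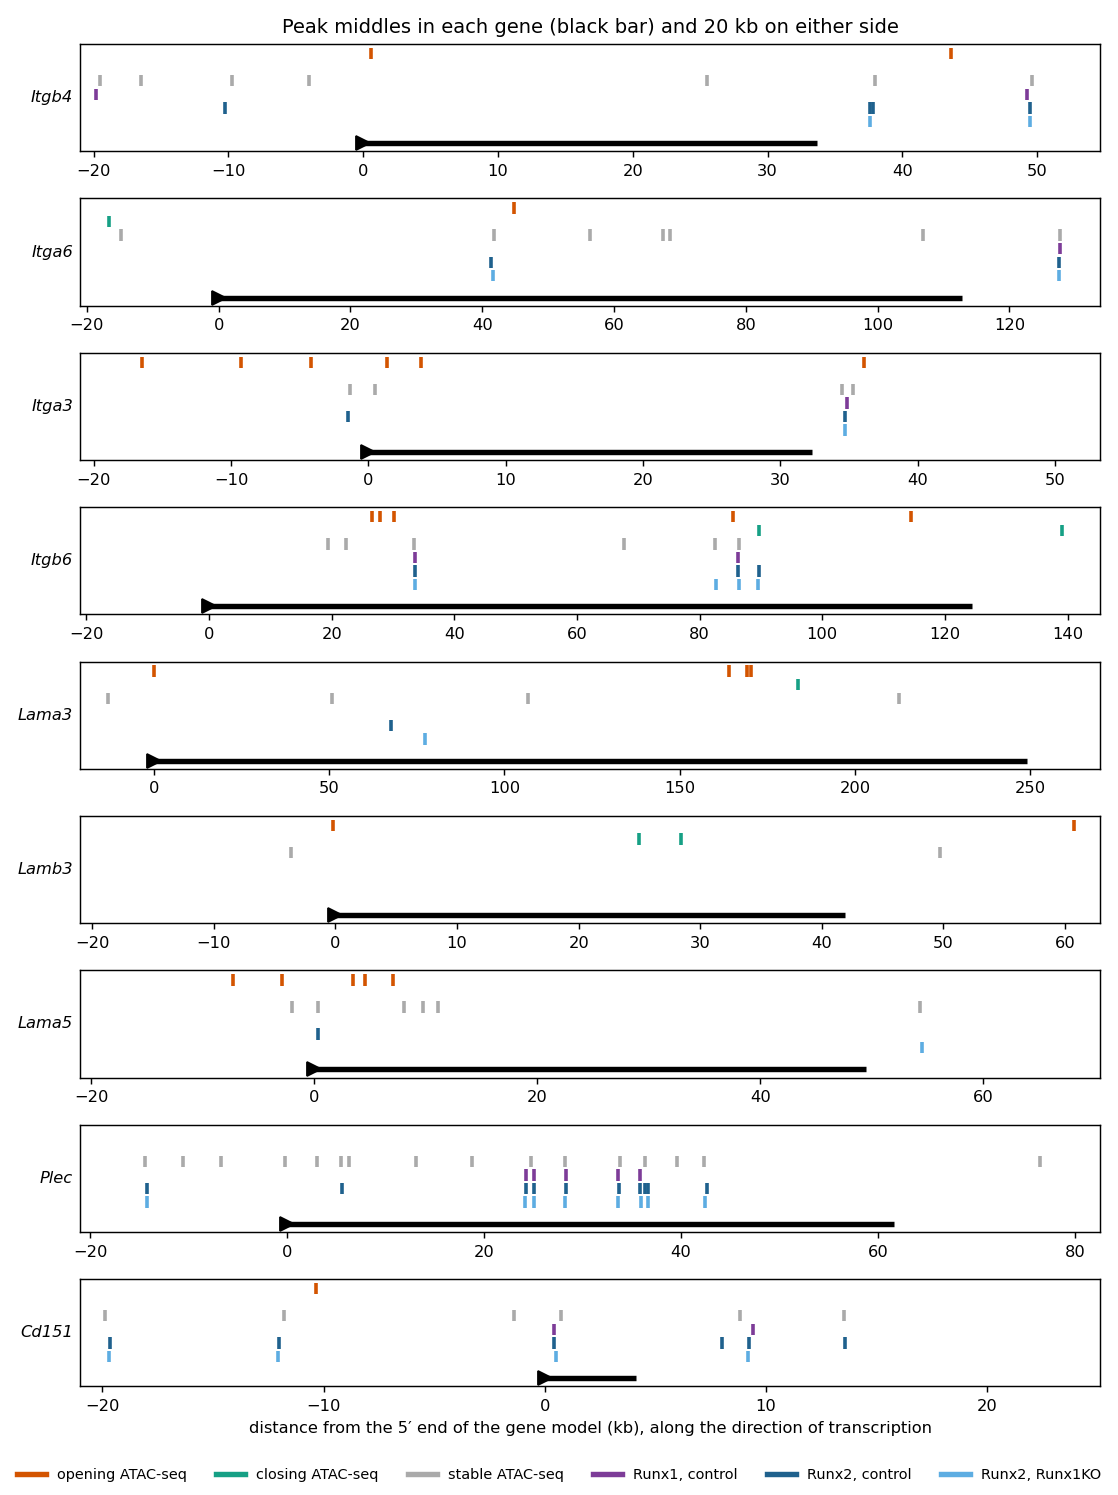
Positions of peak middles (x axis, kb from the 5′ end of each gene model, in the direction of transcription) for 3 ATAC-seq classes and 3 ChIP-seq lists, each in a row; the black bar is the gene. Opening peaks sit at the starts of Itgb4, Lama3 and Lamb3, Plec has none, and Runx1 and Runx2 peaks cluster in Plec.

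Runx1 peaks of control cells lay at 6 of 9 loci (46.9% of tested genes), and Runx2 peaks at 8 of 9 in control (77.2%) and 8 of 9 in Runx1KO cells (78.1%). Shares of this size are near the background. Plec held the largest number in each list, with 10 and 8 Runx2 peaks in control and Runx1KO cells and 5 Runx1 peaks in introns between 24273 and 35874 bases into the gene and enrichments of 3.13- to 6.18-fold over local background, as the authors' peak caller gave them. Each of these 5 overlapped a Runx2 peak in control and in Runx1KO cells. The strongest, printed above, held 2 Runx words and had a Runx2 enrichment of 5.76 in control and 6.04 in Runx1KO cells. Cd151 had a Runx1 peak 434 bases into the gene with an enrichment of 4.8, and Itgb6 had 2 in introns, of 9.72 and 6.98. No Runx1 peak lay at Lama3, Lamb3 or Lama5, and Lamb3 had no Runx2 peak in either genotype. The 2 Runx1 peaks counted for Itgb4 lay 19793 bases upstream and beyond its 3′ end in H3f3b, and the only ones of Itga6 and Itga3 lay beyond their 3′ ends.

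None of the 26 opening peaks at the 9 loci overlapped a Runx1 peak, where 1.25% of all 9427 opening peaks did, nor a Runx2 peak of control (3.64%) or Runx1KO cells (3.28%). At shares this low, 0 of 26 is not distinguishable from the background. Of the 58 stable peaks at these loci, 12 overlapped a Runx1 peak, where 10.3% of all stable peaks did. CAGGTG or CAGGTA, on either strand, occurred in 21 of the 26 opening peaks, and in 78.9% of all opening, 58.8% of all stable and 40.5% of all closing peaks. TGTGGT occurred in 6 of 26, against 35.4% of all opening peaks, and the Grhl word AACNNGTT in 1 of 26, against 8.1%. In words, the opening peaks of these genes were close to opening peaks in general. A match is a description of letters and not a bound site.

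Of 68 further genes of the pathway, all in the table, 52 were tested in Runx1KO cells, of which 8 rose and 4 fell (23.1%, against 13% of all genes). In ZebDKO cells 53 were tested, of which 15 rose and 5 fell (37.7%, against 14.8%). Among the hemidesmosome and plakin partners, 3 of 5 tested rose in Runx1KO and 2 of 5 in ZebDKO. The cytolinker Eppk1 rose by 3.44 and 2.28, and Krt14, a keratin of basal epidermis, by 3.04 and 2.00. Other markers of stratified epithelium stayed low. Krt5 was at most 0.8 TPM in any library, Krt15 at most 0.2 and Trp63 at most 0.1. Evpl, an envelope plakin, rose in Runx1KO by 2.46 and differed by 0.19 in ZebDKO (adjusted p = 0.192). Without the knockout libraries, Eppk1, Krt14 and Evpl would not pass the filter. Col17a1, the other transmembrane protein of the epidermal hemidesmosome, was between 0.1 and 0.3 TPM in all 9 libraries. Dst, which holds the epidermal plakin BPAG1 among its forms, was at 8 to 11.1 TPM in control, 8.7 to 8.9 in Runx1KO and 5.6 to 6.9 in ZebDKO libraries and was not called. Ppl was at 0 to 0.1 TPM.

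Among the other integrin chains, no gene rose in Runx1KO and 2 of 11 fell. Itga9, a tenascin receptor chain, fell, with log2 differences of -3.96 in Runx1KO and -1.98 in ZebDKO, and so did Itgb7, known from leukocytes, at -2.01 and -2.20. For Runx1KO against control both genes passed the filter only through the control libraries, where they are high. In ZebDKO 4 of 12 rose, with Itga10, a collagen receptor chain, the named example at 1.68. Itgb1, which pairs with α3 and α6, was at 847.3 to 863.2 TPM in control, 977.3 to 993.7 in Runx1KO and 822.3 to 875.3 in ZebDKO libraries and was not called.

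Of the other basement membrane genes, 13 were tested, with 3 higher and 2 lower in Runx1KO and 5 higher and 1 lower in ZebDKO. Col4a3 and Col4a4, collagen IV chains found in the glomerular basement membrane, rose by 3.94 and 2.91 in Runx1KO and by 3.76 and 2.70 in ZebDKO. The other collagen IV chains tested were not called, and Col4a5 differed by 0.23 in Runx1KO and by -0.68 in ZebDKO. Npnt, a ligand of integrin α8β1 in the developing kidney, rose by 2.29 and 2.39. Among laminin receptors and tetraspanins, Bcam, which binds the laminin α5 chain, rose by 3.37 in Runx1KO, the only call of 8, and by 2.72 in ZebDKO. Cd82 rose by 1.43 in ZebDKO, and its difference in Runx1KO was 0.99 (limma adjusted p = 1.11e-06), just short of the 2-fold limit. The dystroglycan gene Dag1 fell by 1.11 in ZebDKO, although this fall missed the 2-fold limit after median-ratio scaling, at -0.92. In the adhesion plaque, Fermt1, the epithelial kindlin that activates integrins, rose by 5.02 and 5.46, from 0, 0 and 0.1 TPM in control libraries to 31.1 to 33.4 and 43.1 to 46.2. Fermt1 thus passed the filter only through the knockout libraries. Lims1 fell by 1.06 in ZebDKO, and likewise missed the limit after median-ratio scaling, at -0.88. The other plaque genes tested were not called.

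Genes with the most similar pattern were sought among 13374 genes by the Euclidean distance of centred log2(TPM + 1) profiles over the 9 libraries, which are only 3 genotypes. For Itgb4 these were Mpzl2 (distance 0.28), Phlda2 (0.51) and Il24 (0.52). For Lamb3 they were Fermt1 (0.41), Crb3 (0.47) and Tmem184a (0.51), and for Lama3 they were Fam84b (0.24), Ctsc (0.24) and Ptpn3 (0.27). Lama5 was followed by Slc7a7 (0.24), Igsf5 (0.24) and Hagh (0.25), and Itga3 by Rdh11 (0.16), Tmem144 (0.17) and Gstm2 (0.21). Itga6 had Mas1 (0.21), Lrrc8b (0.21) and Map3k9 (0.23), of which Mas1 was listed at 0 in control cells. Itgb6 had H2-Q7 (0.34), Rnf19b (0.34) and Smtn (0.37). No member was among the 3 nearest genes of another.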

How the data were processed

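The authors trimmed reads with Trim Galore, aligned them with STAR to mm9, removed duplicates with sambamba, counted them with featureCounts and deposited TPM. The gene lengths behind TPM, the use of strand and the clones are not given in the sources used here. The main TPM table (9 libraries, 24953 genes) is written to 1 decimal. A second TPM table of 6 libraries (control and Runx1KO, 32792 genes, 26 names turned into dates left out) was an alternative. The authors called ChIP-seq peaks with MACS2 on combined replicates. The fold (enrichment) and the −log10 q in these lists are the authors' deposited values, and scores and p-values beside them were not used. ATAC-seq classes are the authors' deposited lists, whose log2 fold changes and −log10 values, the authors' own comparison, were not used.

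Depth cannot be read from TPM or from peak lists. All libraries had 12541 to 12697 genes at 1 TPM or more, and correlations of log2(TPM + 1) were 0.9941 to 0.9955 within and 0.9120 to 0.9266 between genotypes. The labels do not say whether replicates are separate cultures. The paper calls them biological and states that the cells of each genotype were cultured in triplicate. The p-values measure the spread between these libraries.

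Each comparison took the 6 libraries of its groups, kept genes that reached 1 TPM in 3 or more of them, and modelled log2(TPM + 1) in R 4.3.3 with limma 3.58.1 (trend in the prior variance, two-sided, Benjamini-Hochberg over all tested genes). A call needs an absolute log2 difference over 1 and an adjusted p under 0.05. This scale understates changes of low genes. The fit was tested on simulated data. Gene models were GENCODE vM1 and sequences the NCBIM37 genome, both mm9. A printed window is the stretch with most motif words (at most 220 bp between the outer edges of the words) plus up to 40 bp on each side, or the 300 bp before the Lamb3 start. Python 3.11.15, pandas 2.3.3 and matplotlib 3.10.9 were used for the rest.

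The members, the pathway and marker lists, the tests and the motifs were chosen with earlier results of these data known. Named were all members, Runx1, Zeb1, Zeb2 and Grhl2, up to 3 called genes with the largest difference per pathway group and knockout, and the 3 nearest profiles of members called in a knockout. Lamb1, Lamb2, Lamc1, Itgb1, Col17a1, Dst, Ppl, the chain shares and the ratios between genes were added after values were seen. So were Krt5, Krt15, Trp63, Col4a5 and the correlations between members. A gene of the pathway list that the rule names is not reported here. Alternatives were pseudocounts of 0.1 and 0.5, no filter or one of 5 TPM, median-ratio and quantile scaling, a replicate block, 1 fit of 9 libraries, no trend, a limit of 1.3-fold, each library left out, the second table, and other locus windows or a ChIP-seq q limit of 0.01.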

Additional observations from a re-analysis of the deposited data

Results flagged for a closer look

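In the direct comparison of the knockouts by limma, which uses no control library, 2 of the 9 genes differed by more than 2-fold. Itga6 was higher in Runx1KO than in ZebDKO by 1.44 on the log2(TPM + 1) scale, and Itgb6 was lower there, at -1.19. Itgb6 entered this comparison only through the ZebDKO libraries, where it is high, and a filter of 5 TPM removes it.

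Of the 68 pathway genes, 9 of the 52 tested were called in the same comparison (17.3%, against 15.8% of all genes). Higher in Runx1KO were the plakins Evpl (2.27) and Eppk1 (1.16) and the keratin Krt14 (1.04). Krt14 fell below the 2-fold limit, at 0.95, without ZebDKO replicate 1, and lay on it, at 1.0, without Runx1KO replicate 1. After median-ratio and quantile scaling Krt14 was at 0.90 and 0.79, and Eppk1 was at 0.91 after quantile scaling, all below the limit. Lower in Runx1KO were the integrin chains Itgb3 (-2.46), Itga2 (-2.02), Itga9 (-1.98), Itga5 (-1.95) and Itga10 (-1.27) and the basement membrane gene Fras1 (-1.46). Of these, Itgb3, Itga2, Itga9 and Fras1 were below 1 TPM in every Runx1KO library. Like Itgb6, they entered this comparison only through the ZebDKO libraries, where they are high. Itga5, which encodes the fibronectin receptor chain, was at 39.1 to 42.2 TPM in control, 22.4 to 23.7 in Runx1KO and 87 to 96.3 in ZebDKO libraries.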

How the results depend on the processing

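Among the 9 genes no direction turned under any alternative, and no call was lost where the gene was tested. Itga3 in ZebDKO passed the 2-fold limit after median-ratio scaling (1.14). With each library left out in turn, 6 of the 9 genes were called in Runx1KO, 5 in ZebDKO and 2 in the direct comparison every time. The filter of 5 TPM removed Itgb6, which left 1 in the direct comparison, and it lowered the genes called lower to 442 in Runx1KO and 566 in the direct comparison and the pathway genes called lower in the latter to 3. The limit of 1.3-fold gave 2413 genes higher and 2444 lower in Runx1KO, 2244 and 4502 in ZebDKO, and 4376 and 2404 in the direct comparison, where 6 of the 9 genes were called. At that limit the pathway list had 18 higher and 11 lower in Runx1KO, 13 lower in ZebDKO, and 13 higher and 17 lower in the direct comparison. Pseudocounts of 0.1 and 0.5 and median-ratio scaling each gave 11 pathway genes higher in Runx1KO, against 8 in the main fit. Median-ratio and quantile scaling each left 3 pathway genes lower in ZebDKO, and quantile scaling left 1 higher in the direct comparison. Median-ratio and quantile scaling moved the higher share of calls to 64.2% and 57.2% in ZebDKO and to 46.2% and 47.6% in the direct comparison. Counting only peaks within 5 kb of a start left 0 genes with a closing peak, 2 with a Runx1 peak, and 5 and 3 with a Runx2 peak in control and Runx1KO cells. In the second TPM table Itga6 per Itgb4 was 0.52 in Runx1KO and 10.8 in control.

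Replicate numbers did not pair the samples: deviations of same-numbered libraries correlated between -0.05 and 0.04. With the replicate number as a block 1040 genes were higher and 669 lower in Runx1KO, 978 and 945 in ZebDKO, and 1208 and 863 in the direct comparison, and 6, 5 and 2 of the 9 genes were called.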

Other observations

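The tables of 6 and of 9 libraries gave unequal level ratios for the same gene in different genotypes. For Itgb4 the level in the 6-library table was 3.27 times that in the 9-library table in control and 1.87 times in Runx1KO cells. For Lama3 it was 0.999 and 1.37 times, whereas for Plec it was 7.43 and 7.5 times and for Cd151 1.68 and 1.72 times. Itgb4 was at 1.41 to 2.11 TPM in the control libraries of the 6-library table.

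In the 250 bp before the gene start, CAGGTG or CAGGTA occurred once in Lamb3, Itga3 and Cd151 and in 2 copies in Lama5, and in none of the other 5 genes, where 21% of 10627 tested genes had it. TGTGGT occurred in none of the 9, against 10.5%. That window overlapped an opening peak in Itgb4, Lama3 and Lamb3 and a stable peak in Itga3, Lama5, Plec and Cd151, and no ATAC-seq peak in Itga6 and Itgb6. For Itga6 the window lies at the outermost start, whereas a stable peak with 5 Zeb words covered an internal start.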
